A study of Homo sapiens with 6 samples.

Results

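The ubiquitin-specific proteases (USPs) are the largest family of deubiquitinases, and their transcripts were followed here in Hep3B hepatocellular carcinoma cells with and without knockdown of NXN (nucleoredoxin, a redox-active protein of the thioredoxin family). The family was given as a list of 49 symbols, which were matched to the Ensembl identifiers of the deposited tables. Of the 49, 48 were found among 23406 features, and the identifier of USP27X was not matched, so that gene was not analysed here. After a filter on low counts 45 members were tested among 14071 features. The 3 members that did not pass were USP17L2, USP29 and USP51.

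The Hep-3B line is labelled as epithelial cells of WT genotype. Its cells received lentivirus with either a control hairpin (shControl) or a hairpin that targets NXN (shNXN), were selected in puromycin, and total RNA was collected on days 7, 9 and 11. Each group has 3 libraries, 1 for each day, so the replicates of a group are also its time points. All groups share the line, the viral delivery and the selection, and which shRNA sequence the sequenced cells carried is not given in the sources used here. Nothing in the labels says whether the 3 libraries of a group came from separate transductions, so p-values measure the spread between these libraries only.

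Ubiquitin is attached to proteins by a chain of E1, E2 and E3 enzymes and is removed by deubiquitinases. USPs are cysteine proteases that cut the bond between ubiquitin and its target, or between the ubiquitins of a chain, and so protect some substrates from the proteasome and end the signalling role of others. The study concerns the stability of the transcription factor Snail, a substrate of the USP called DUB3 (USP17L2). A few listed members, such as USP39, lack the residues needed for catalysis.

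The catalytic cysteine of a USP lies in a short conserved stretch, the Cys box. The coding sequences below are shown because they let close relatives be compared at the same conserved place although their base composition differs, and base composition is what the fold changes tracked. Each is a 60-base window of the longest GENCODE 29 coding sequence on GRCh38, written 5′ to 3′ on the coding strand. The capitals mark the in-frame match to AANACNTGNT, which in these 9 genes holds the codons for asparagine, threonine and the cysteine.
USP15: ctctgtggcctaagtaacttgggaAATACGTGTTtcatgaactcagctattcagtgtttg
USP4: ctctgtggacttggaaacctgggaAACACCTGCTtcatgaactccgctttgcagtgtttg
USP11: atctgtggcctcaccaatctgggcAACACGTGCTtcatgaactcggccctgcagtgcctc
USP12: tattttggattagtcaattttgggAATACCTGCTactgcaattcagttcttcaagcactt
USP46: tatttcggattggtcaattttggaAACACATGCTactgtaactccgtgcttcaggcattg
USP44: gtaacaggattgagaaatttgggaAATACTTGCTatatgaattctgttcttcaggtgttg
USP49: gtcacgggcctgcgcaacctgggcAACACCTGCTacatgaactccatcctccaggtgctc
USP1: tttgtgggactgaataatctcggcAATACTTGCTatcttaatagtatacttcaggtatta
USP16: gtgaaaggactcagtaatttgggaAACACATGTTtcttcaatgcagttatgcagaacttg

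The windows of USP44 (chr12:95533384-95533443, minus strand) and USP49 (chr6:41806171-41806230, minus strand) each lie in 1 coding exon. Those of USP15 (chr12:62355422-62381495, plus strand), USP4 (chr3:49305883-49310673, minus strand), USP11 (chrX:47240823-47241282, plus strand), USP12 (chr13:27105903-27116533, minus strand), USP46 (chr4:52628122-52631081, minus strand), USP1 (chr1:62441555-62442200, plus strand) and USP16 (chr21:29037410-29038340, plus strand) are joined across an intron. GC content of the window was 61.7% in USP49 against 35.0% in its relative USP44, and 58.3% in USP11 against 41.7% in USP15. The window of USP46 also had 41.7%, although the log2 fold changes of USP15 and USP46 were −2.08 and −0.33. The relation of window GC content to fold change was not computed. The in-frame motif, searched on the coding strand only, was present in 33 of 48 listed members and in 413 of 19529 protein-coding genes (2.11%). In CYLD the match encodes tryptophan in place of cysteine and is not the Cys box. The 15 members without a match include USP53, USP39 and USPL1, as well as active proteases such as USP7 and USP9X, whose codons differ from these letters.

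The libraries held between 15349382 and 16332589 estimated counts. NXN, the targeted gene, was at 181, 138 and 143 CPM (counts scaled to library size with TMM factors) in shControl on days 7, 9 and 11 and at 42.7, 47.5 and 39.5 CPM in shNXN. The groups did not overlap, and NXN changed by a log2 fold change of −1.83 ± 0.16 (SE, adjusted p = 0.0378, edgeR quasi-likelihood test with Benjamini-Hochberg adjustment). The NXN call was lost in 4 of the 6 fits that left out 1 library, where edgeR adjusted p ran from 0.00131 to 0.225. A two-sided exact permutation test of 3 against 3 libraries gave p = 0.1 for NXN, which is the smallest p that design allows. All 10 hepatocyte or hepatoma markers had counts, and the summed level ran from 7890 to 16858 FPKM (fragments per length of transcript and depth of library) in shControl and from 4106 to 9315 FPKM in shNXN. ALB, which encodes albumin, spanned 4409 to 12145 FPKM in shControl and 489 to 4735 FPKM in shNXN. The 10 markers did not move together. AFP spanned 819 to 1129 FPKM in shControl and 246 to 889 FPKM in shNXN. SERPINA1 was higher in shNXN, at 936 to 1015 FPKM in shControl and 1205 to 1638 FPKM in shNXN. TF spanned 908 to 1121 FPKM in shControl and 1075 to 1731 FPKM in shNXN. Of the markers of other cell types, VWF and KDR (endothelial) and CD3E (T cells) were listed at 0 in all 6 libraries, the 6 fibroblast genes summed to 2.38 to 3.35 FPKM in shControl and 2.30 to 4.39 FPKM in shNXN, and the 5 leukocyte genes summed to 79.6 to 127 FPKM in shControl and 120 to 238.5 FPKM in shNXN. Most of that sum was LYZ, which ran from 78.2 to 124 FPKM in shControl and from 117 to 233 FPKM in shNXN. The part of these differences in the results for the USPs was not tested.

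Most of the family was transcribed in Hep3B cells. By mean FPKM of the shControl libraries, 5 members reached at least 50 FPKM (USP22, USP5, USP39, USP7 and USP11), 21 lay from 10 to 50 FPKM, 19 from 1 to 10 FPKM and 3 under 1 FPKM. USP22, the deubiquitinase of the SAGA coactivator complex that removes ubiquitin from histones, had the highest level, with 147, 130 and 123 FPKM in shControl and 170, 167 and 142 FPKM in shNXN on days 7, 9 and 11. USP5, which takes apart unanchored ubiquitin chains, followed with 80.3, 79.5 and 92.8 FPKM in shControl and 128, 165 and 90.5 FPKM in shNXN. USP39, a spliceosome component, was at 69.8, 90.7 and 87.6 FPKM in shControl and at 98.7, 105 and 96.6 FPKM in shNXN. USP22 stood clear of the next members in every shControl library, whereas the ranges of USP5 and USP39 overlapped. Counted per kilobase of reference transcript, USP22 stayed in rank 1 and USP39 and USP5 exchanged ranks 2 and 3. The order of the 48 members by the 2 measures had a Spearman correlation of 0.90, as a description across genes.

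**Figure D1:**
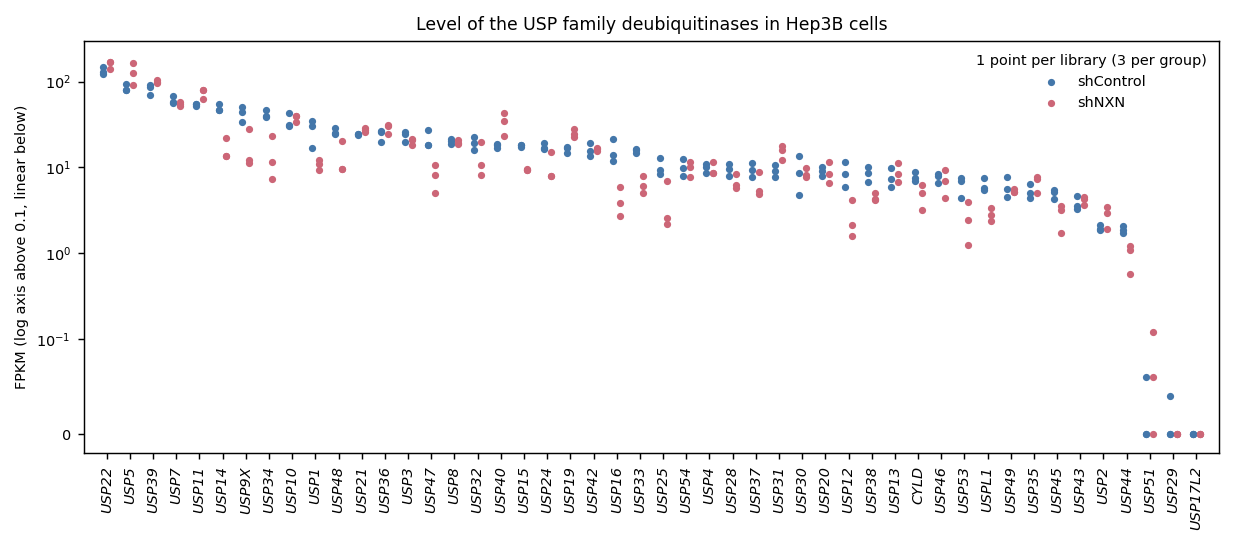
Level of each of the 48 members found, in FPKM on a log axis (linear below 0.1), with 1 point per library and members ordered by the shControl mean. USP22 leads at 123 to 147 FPKM in shControl, and USP17L2, USP29 and USP51 lie near or at 0.

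USP17L2 (DUB3) had 0 counts in all 6 libraries. At these depths a count of 0 allows a level of up to 0.184 to 0.195 CPM (3 counts per library), which covers counting error only. USP17L2 belongs to a group of near-identical USP17-like copies among which reads cannot be assigned safely. Of 20 other USP17-like genes in the table, 12 had 0 counts in every library, 8 had a count in at least 1 library, and the highest count of any copy in a library was 3. USP29, which has also been linked to Snail, had 2 counts in shControl on day 7 and 0 in the 5 other libraries. USP51, a histone deubiquitinase related to USP22, had 1, 0 and 0 counts in shControl and 2, 0 and 3 in shNXN. A difference between the groups was not detectable at this depth for these 3 genes. SNAI1, which encodes Snail, was at 2.56, 3.63 and 3.25 CPM in shControl and 5.29, 4.41 and 4.25 CPM in shNXN, with a log2 fold change of 0.56 ± 0.26 that did not pass (edgeR, adjusted p = 0.179).

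In the comparison of shNXN with shControl, 3 of the 45 tested members were called at an adjusted p under 0.05, and all 3 were lower in shNXN: USP53, USP16 and USP1. Across all features 3.39% were called, 3.21% as lower. The median log2 fold change of the members was −0.52, against 0.03 for all features tested, with 32 members negative and 13 positive. Values ran from −2.58 for USP53 to 0.48 for USP11, so the lower side of the family reached much farther than the upper. An unadjusted p under 0.05 was found for 23 members and for 32.9% of all features. Bulk RNA cannot tell fewer cells of a kind from less RNA per cell.

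The 3 calls lay just inside the threshold and depended on the libraries used. Leaving out a library in turn gave 0 or 1 calls among the members in 5 cases, where 0 to 248 of all features were called. Without the shNXN library of day 11 there were 25 calls among the members and 3706 among all features. Because a replicate number stands for a day, the fit with day as a replicate block is given beside the main one. That blocked fit called 20 of the 45 members, 19 lower and 1 higher, where 23.3% of all features were called (17.0% lower and 6.28% higher). DESeq2 without the block called 21 members against 23.5% of all features.

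USP53, a member located at tight junctions and long regarded as inactive, was at 26.5, 21.0 and 32.3 CPM in shControl on days 7, 9 and 11 and at 2.98, 1.96 and 8.38 CPM in shNXN. The highest shNXN library, that of day 11, was below the lowest shControl library, and the mean in counts was 5.99-fold lower. In FPKM the groups were also separate but closer, with means of 6.30 in shControl and 2.55 in shNXN. Its log2 fold change was −2.58 ± 0.53 (edgeR quasi-likelihood test, adjusted p = 0.0497), and −2.79 ± 0.34 with the block (adjusted p = 0.0150).

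USP16 removes ubiquitin from histone H2A. It was at 50.2, 31.6 and 36.8 CPM in shControl and at 9.80, 6.68 and 15.9 CPM in shNXN, so that the groups were again separate, with day 11 the highest shNXN value. The mean was 3.66-fold lower, with a log2 fold change of −1.87 ± 0.35 (edgeR, adjusted p = 0.0473).

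USP1 deubiquitinates FANCD2 and PCNA in DNA repair together with its partner WDR48, and has also been linked to Snail. Its values were 131, 63.1 and 112 CPM in shControl and 41.6, 33.3 and 41.6 CPM in shNXN. The shNXN libraries were close together while the shControl library of day 9 lay well below the other two of its group. The mean was 2.62-fold lower and the log2 fold change was −1.39 ± 0.28 (edgeR, adjusted p = 0.0492).

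USP15 acts on TGF-beta receptor signalling and had the second most negative fold change without passing the test. It was at 39.6, 35.0 and 38.8 CPM in shControl and at 4.69, 4.05 and 18.0 CPM in shNXN. The shControl values were tight, and the shNXN library of day 11 was far above those of days 7 and 9. The log2 fold change was −2.08 ± 0.56 (edgeR, adjusted p = 0.0720), and −2.40 ± 0.46 with the block (adjusted p = 0.0281).

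On the upper side the values were small. USP11, which acts in homologous recombination and on TGF-beta receptors, was at 148, 143 and 149 CPM in shControl and at 216, 213 and 185 CPM in shNXN. Its groups did not overlap, the log2 fold change was 0.48 ± 0.12 (edgeR, adjusted p = 0.0655), and it was the 1 member called higher with the block (adjusted p = 0.0359). USP19, which has a form anchored in the endoplasmic reticulum, was at 57.0, 65.9 and 54.2 CPM in shControl and 76.0, 89.2 and 68.3 CPM in shNXN (log2 fold change 0.40 ± 0.16, edgeR adjusted p = 0.140). USP2, known for stabilizing cyclin D1, was at 4.06, 6.28 and 4.17 CPM in shControl and 9.19, 5.21 and 4.90 CPM in shNXN, and its groups overlapped (log2 fold change 0.41 ± 0.34, adjusted p = 0.415). The 3 members of the highest level did not pass: USP22 had a log2 fold change of 0.28 ± 0.14, USP5 of 0.32 ± 0.16 and USP39 of −0.10 ± 0.20 (edgeR, adjusted p = 0.209, 0.211 and 0.743).

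**Figure D2:**
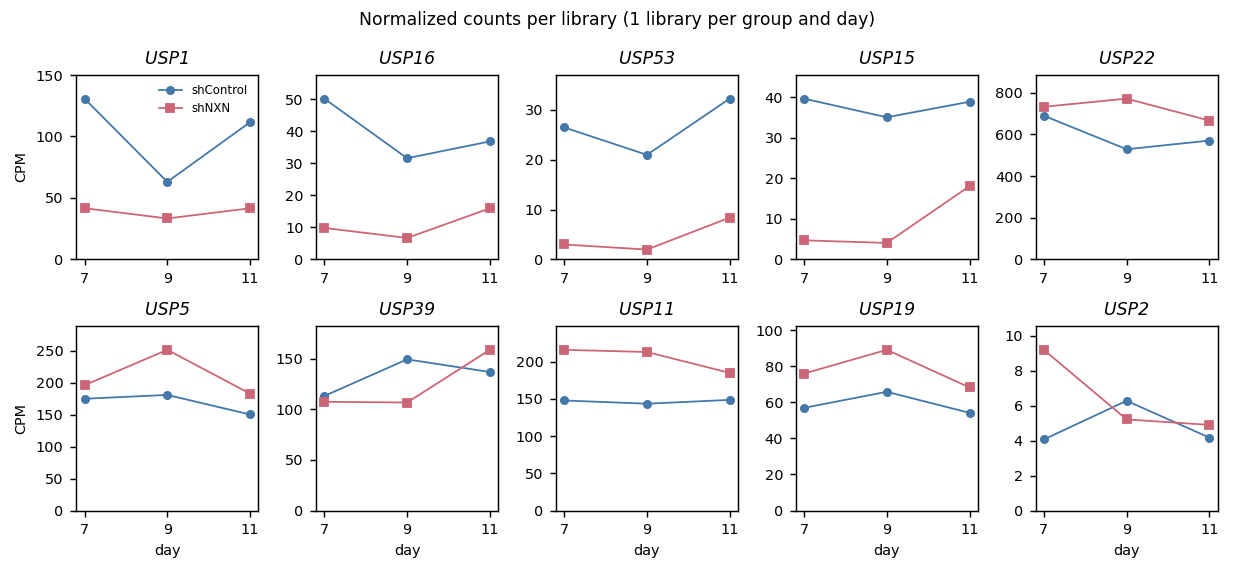
Normalized counts (CPM, axis from 0) by day for 10 members, with 1 library per group and day; circles are shControl, squares shNXN, and lines join the libraries of a group. USP1, USP16, USP53 and USP15 are lower in every shNXN library than in any shControl library, USP11, USP19 and USP5 higher, and USP2, USP22 and USP39 overlap.

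Counted by overlap alone, 21 of the 45 members had every shNXN library below every shControl library in CPM, where 21.5% of all features did, and 5 members had every shNXN library above, where 19.0% of all features did. The 5 were USP11, USP19, USP5, USP21 and USP40. On the FPKM scale 18 members were lower (15.2% of all features) and 6 higher (20.4%).

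By role, each member was placed in 1 list, so that USP11 and USP2, described above with positive values, stand in the lists for signalling and trafficking. The 7 tested members of the list for DNA repair and the cell cycle had negative values, with a median log2 fold change of −1.39. Of these, 1 was called (USP1, against 3.39% of all features) and 4 with the block (against 23.3%). They include USP44, a regulator of the mitotic checkpoint (−1.80), USP45, which acts on ERCC1 (−1.68), and USP47, which acts on DNA polymerase beta (−1.56). USP7, which stabilizes MDM2, was at −0.64 and USP28, which stabilizes MYC, at −0.42, both without a call by edgeR with or without the block. These genes have a median transcript GC content of 40.9%.

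Of 7 members that act in TGF-beta, Wnt or NF-kB signalling, edgeR called none without the block and 6 with it (5 lower and 1 higher, against 23.3% of all features), with a median of −1.32. DESeq2 without the block called 6, against 23.5% of all features. The 7 genes have a median transcript GC content of 40.4%. USP34, which acts on axin in the Wnt pathway, was at −1.73 ± 0.46 (edgeR, adjusted p = 0.0711, and 0.0339 with the block). USP9X was at −1.32, USP25 at −1.60 and CYLD, which cuts K63-linked and linear chains in NF-kB signalling, at −0.72. USP4 was at −0.03, between its relatives USP15 and USP11.

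The 7 tested histone and chromatin members were spread on both sides of 0, with a median of −0.04. Their median transcript GC content was 51.7%, above that of the repair and signalling lists. USP16 was called, and USP3, which acts on histone H2A, was at −0.52 and was called with the block and by DESeq2 but not by edgeR without the block. USP49, which acts on histone H2B, was at −0.48 and was called by DESeq2 (adjusted p = 0.0373) but not by edgeR with or without the block. USP42 was at −0.04, USP21 at 0.20 and USP36, a nucleolar member, at 0.26.

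The 8 endosome, receptor and trafficking members had a median of −0.51, with 0 calls and 3 with the block, where 23.3% of all features were called. Their median transcript GC content was 43.1%. USP12 was at −1.70, USP33 at −1.44 and USP8, which acts in endosomal sorting of receptors, at −0.94. USP10 and USP20 were at 0.04 and 0.20. Of the 3 members that act on proteasome-bound or free chains, the proteasome-associated USP14 was at −1.57 ± 0.34 (edgeR, adjusted p = 0.0532, and 0.0184 with the block), and USP13 and USP5 were at −0.19 and 0.32. USP30, anchored in the outer mitochondrial membrane, was at −0.04. USPL1, which acts on SUMO rather than ubiquitin, was at −1.54 (adjusted p = 0.0577, and 0.0161 with the block), and USP54 at 0.05. Of the 7 remaining members USP48 was the lowest (−1.01) and USP35 the highest (0.37).

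The order of these values followed the GC content of the transcripts closely. Across the 45 members, the GC content of the longest transcript and the log2 fold change had a Spearman correlation of 0.93, against 0.79 across all features tested with a GC value. These are descriptions across genes that share the same 6 libraries. GC content ran from 34.5% in USP53, the member with the lowest fold change, to 61.3% in USP35. The members' median was 44.5% and that of all features 48.4%. The GC content of the wobble (last) codon position, which ran from 27.8% to 78.7%, gave a Spearman correlation of 0.89. The longest transcript need not be the form present in these cells. That of USP8 has 19026 bases, against a mean of 2774 implied by counts and FPKM together in shControl. For USP12 these lengths were closer, at 4511 and 4230 bases.

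Ranked by GC content, the 15 lowest members had a median log2 fold change of −1.60 and all 15 were negative, with 2 calls and 14 with the block, against 3.39% and 23.3% of all features. The middle 15 had a median of −0.52 with 1 call and 5 with the block. The 15 highest had a median of 0.20, 12 of them positive, with 0 calls and 1 with the block. USP46, with 40.6% GC and a log2 fold change of −0.33, was well above its neighbours in GC content.

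**Figure D3:**
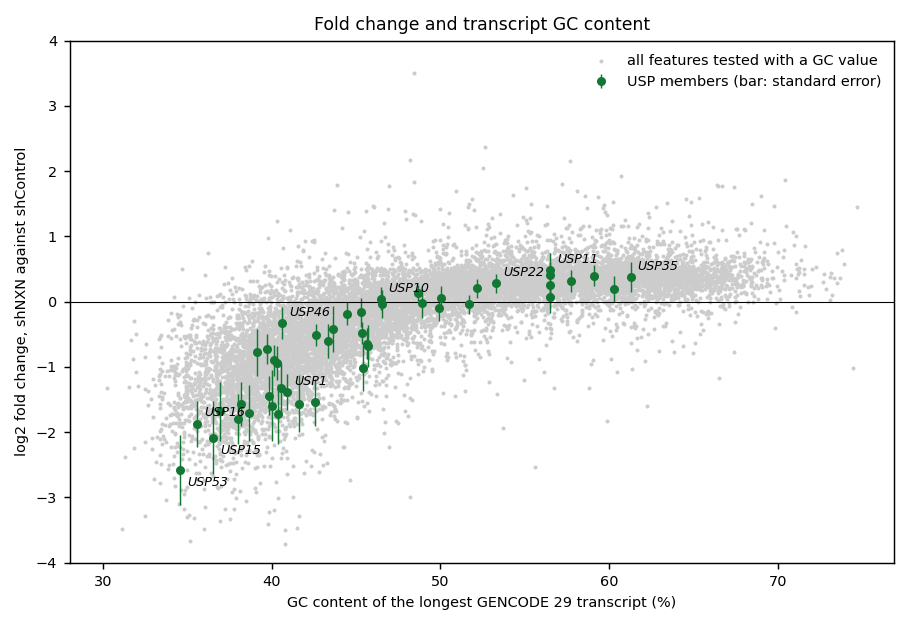
Log2 fold change (shNXN against shControl) against GC content of the longest GENCODE 29 transcript in percent; grey points are all tested features with a GC value, green points the 45 members with their standard error, and 9 features beyond ±4 are not drawn. The members run from USP53 (34.5% GC, −2.58) up to USP35 (61.3% GC, 0.37).

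Close relatives, which share their domain structure, can be compared in the same values. They are the same members and fold changes that gave the correlation above, so their order is no separate support for it. Of 13 groups of paralogs with at least 2 tested members, the member with the highest GC content had a higher log2 fold change than the member with the lowest in 13. USP15 (36.5% GC), USP4 (48.9%) and USP11 (56.5%), whose Cys boxes are printed above, stood at −2.08, −0.03 and 0.48. USP44 (38.0%) and USP49 (45.3%) stood at −1.80 and −0.48, and USP38 (40.1%) and USP35 (61.3%) at −0.90 and 0.37. USP12 (38.7%) and USP46 (40.6%) differed by little in GC content and by more in fold change, at −1.70 and −0.33. The groups were listed with earlier results of these data known, and the difference within a group was not tested.

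The fits were therefore repeated after the trend of each library with GC content had been removed. Whatever in the contrast runs parallel to GC content is lost with it, of biological origin or not. No member was called (0 of 45) where 0.0355% of all features were, and 15 members and 17.2% of all features had an unadjusted p under 0.05. The median of the members was −0.14, with a range from −1.20 to 0.58. With the block and the GC correction together 0 members were called, against 1.07% of all features, and again 15 had an unadjusted p under 0.05, as did 21.5% of all features. The Spearman correlation with GC content over the 45 members was 0.39 after the correction, so part of the order remained, and the 15 members of lowest GC content had a median of −0.53.

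USP53 was at −1.20 ± 0.28 after the correction (edgeR, adjusted p = 0.110) and USPL1 at −0.98 ± 0.23 (adjusted p = 0.107). USP34 was at −0.98, USP15 at −0.95 and USP47 at −0.94. USP16 and USP1 were at −0.51 and −0.53 (edgeR, adjusted p = 0.281 and 0.366), and CYLD, USP37 and USP38 turned from negative to 0.25, 0.18 and 0.07. USP46 was the highest at 0.58 ± 0.22 (adjusted p = 0.246). Of the 15 members of highest GC content, 10 came closer to 0, among them USP11 at 0.14, USP19 at 0.04 and USP22 at −0.01. The other 5 moved away from 0, with USP42 at −0.27, USP43 at −0.26, USP39 at −0.24, USP4 at −0.11 and USP54 at −0.10. Of the paralog groups, 10 of 13 kept the higher value in the member of higher GC content. In GC-corrected values 13 members had every shNXN library below every shControl library (10.5% of all features) and 2, USP46 and USP11, every one above (11.4%).

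**Figure D4:**
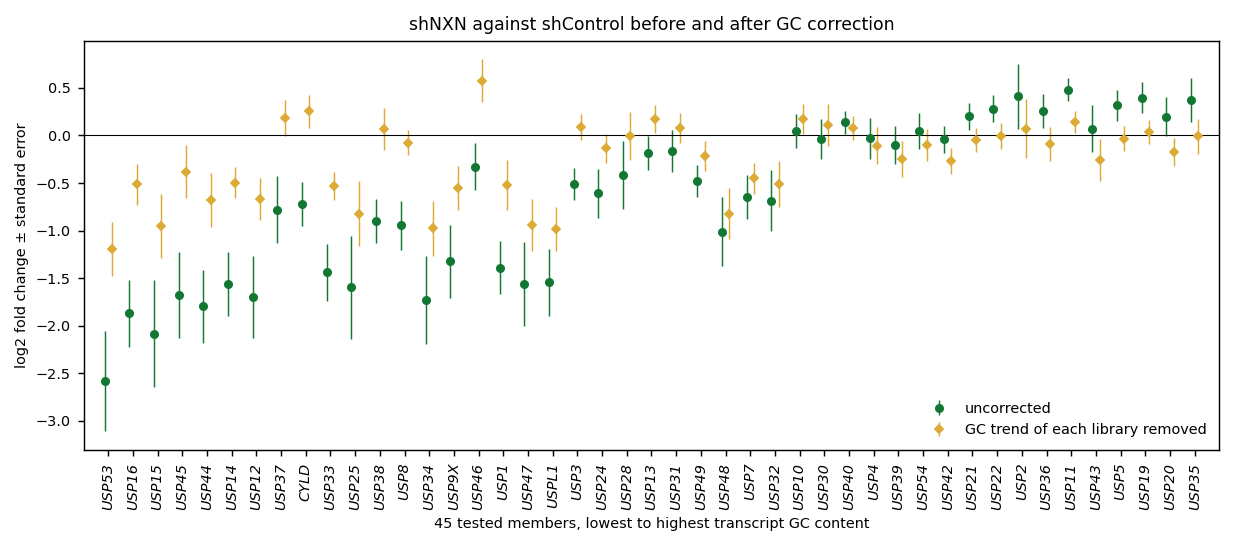
Log2 fold change with its standard error for the 45 tested members, ordered by GC content, without (circles) and with (diamonds) removal of each library's GC trend. The median moves from −0.52 to −0.14, and USP53 stays the lowest at −1.20.

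By day, with 1 library per group and no test of a single day, the difference was larger on days 7 and 9 than on day 11. On days 7, 9 and 11 the members' medians stood at −0.53, −0.68 and −0.13 (log2 scale), against 0.00, −0.01 and 0.07 for all features. After GC correction the medians were −0.23, −0.15 and −0.05. USP15 was at −3.07 and −3.10 on days 7 and 9 and at −1.10 on day 11. USP53 was at −3.14, −3.40 and −1.94, and USP47 at −1.97, −2.68 and −0.66. On days 7, 9 and 11, 33, 33 and 27 of the 45 members were lower, as were 7033, 7069 and 6381 of the 14071 features. A total of 25 members were lower on all 3 days, 8 were higher on all 3 days and 12 had signs that differed between days. The share of all features with the same sign on all 3 days was not counted.

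The slope of the difference on GC content, per 10 percentage points, was 1.20, 1.25 and 0.69 on the log2 scale for the members on days 7, 9 and 11, and 0.68, 0.69 and 0.51 for all features. The slope of the members was thus the steeper on each day, and it was lowest on day 11. A straight line does not describe the relation well. On day 7 the slope was 2.37, 1.62 and 0.38 within the 15 members of lowest, middle and highest GC content. The members span 34.5% to 61.3% GC and all features 30.2% to 74.7%, so the slopes of members and of all features are not a like comparison. A test for a linear trend of the shNXN effect over the days called 0 members and 0.0% of all features (edgeR). It left few residual degrees of freedom and fits only a straight line over the days. The smallest adjusted p over all features was 0.999976 (edgeR), so the 0 calls do not show that the days were alike. An unadjusted p under 0.05 was found for 0 members and 152 features. The fitted trend was positive in 35 of 45 members and in 62.3% of all features.

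**Figure D5:**
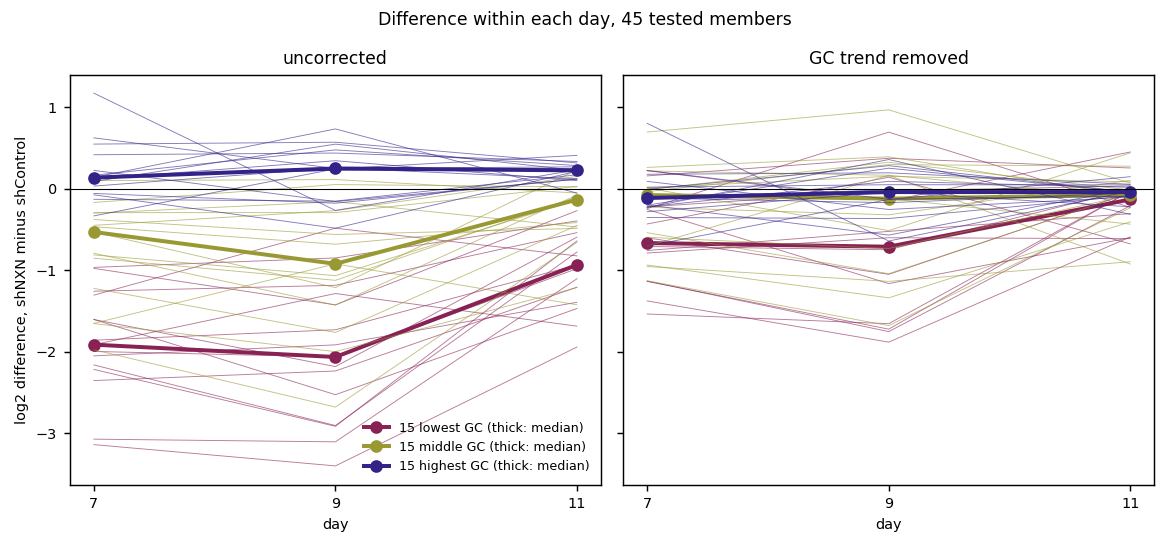
Log2 difference, shNXN minus shControl, within each day for the 45 tested members, without (left) and with (right) removal of the GC trend; thin lines are members, thick lines the medians of the 15 lowest, 15 middle and 15 highest by GC content. The 15 lowest by GC content run at −1.91, −2.06 and −0.93 uncorrected and at −0.67, −0.71 and −0.13 corrected.

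Without both day 11 libraries, a fit added after seeing the data, 25 of the 45 members were called (24 lower and USP11 higher), against 31.8% of all features. This fit left out the day with the smallest median difference and kept fewer libraries, so its calls are no separate support for the others. With the GC correction in that fit 14 members were called against 14.4% of all features, 13 of them lower (7.67% of all features) and USP46 higher (6.70%). The 13 were USP53, USP15, USP16, USP34, USP25, USP14, USP47, USPL1, USP33, USP9X, USP48, USP32 and USP7. USP1 was not among them, at −0.35 with an adjusted p of 0.492 (edgeR), and neither was USP12, at −0.70 with an adjusted p of 0.0553.

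The FPKM values did not always follow the counts. With limma on log2(FPKM + 1), 4 members were called, all lower (USP15, USP16, USP14 and USP33), against 2.04% of all features. USP8 was at 59.4, 50.3 and 59.9 CPM in shControl and at 24.8, 22.1 and 41.2 CPM in shNXN, but at 20.6, 21.7 and 19.0 FPKM against 19.1, 21.1 and 18.8 FPKM. Its counts did not overlap between the groups and its FPKM values did. USP15 had a difference of −0.86 on the log2(FPKM + 1) scale, against −2.08 in counts, and USP40 had 0.83 against 0.14. USP53, called in counts at −2.58, had −1.09 on that scale and was not called there (limma, adjusted p = 0.0933). The mean transcript length implied by counts and FPKM together was 2774 bases in shControl and 1503 bases in shNXN for USP8. It was 2101 and 938 bases for USP15, 4652 and 2892 bases for USP40, and 4269 and 1898 bases for USP53. On days 7, 9 and 11 the implied length of USP15 was 2126, 1924 and 2255 bases in shControl and 499, 436 and 1878 bases in shNXN. In shNXN that of USP8 was 1332, 1066 and 2112 bases and that of USP40 2568, 2334 and 3775 bases. For these genes day 11 lay nearest to the shControl mean. Across 44 members with at least 1 FPKM the median log2 ratio of the implied lengths was −0.07, with 31 negative. Over all features the median was −0.05, with 8538 of 11519 negative. Which lengths the authors used is not stated, so counts were the main measure.

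Other genes of the pathway were compared by lists. GC content and log2 fold change had a Spearman correlation of 0.84 over 30 other deubiquitinases and 0.90 over 17 partner proteins of USPs. Of 34 deubiquitinases of other families, 33 were in the table and 30 were tested, and 3 were called, all lower (10.0% of those tested, against 3.39% of all features): YOD1 (−2.20 ± 0.22), ZUP1 (−1.71 ± 0.31) and UCHL5, a proteasome-bound enzyme (−1.37 ± 0.25), with edgeR adjusted p of 0.0378, 0.0452 and 0.0456. The blocked fit called 9 of the 30, where 23.3% of all features were called. After GC correction 0 were called, and with the block as well 2 were called higher, PSMD14, the deubiquitinase of the proteasome lid (1.26), and COPS5, that of the COP9 signalosome (0.88), where 1.07% of all features were called. Without the correction both had the opposite sign, COPS5 at −0.18 and PSMD14 at −0.50, and the blocked fit called PSMD14 lower (−0.51, edgeR adjusted p = 0.0339). Of 17 partner proteins of USPs 0 were called (edgeR, with 8 at an unadjusted p under 0.05) and 6 with the block (against 23.3% of all features), DESeq2 calling 7 (against 23.5%). These included ATXN7L3 (0.55) and ENY2 (−0.54), which sit beside USP22 in the SAGA module. WDR48, the partner of USP1, USP12 and USP46, was at −0.70 ± 0.21 (edgeR, adjusted p = 0.0846) and at 0.35 after GC correction.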

How the data were processed

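Per the labels, RNA libraries of Hep-3B cells were made from total RNA with a SMARTER mRNA-Seq kit. The authors deposited estimated counts (15.1% to 18.8% of the values in a library were not whole) and, in a second table, FPKM values. Aligner, counting program and annotation are not given in the sources used here. The submitters' processing notes name only mouse builds (GRCm38, mm10), although the features carry human Ensembl identifiers, so that no coordinate of the files' build was used. Sequences and GC content came from GENCODE 29 on GRCh38, longest transcript or coding sequence of a gene. GC content was known for 12740 of 14071 tested features and for all 45 members tested. There were 0 columns without a sample.

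The main test was edgeR's quasi-likelihood test (4.0.16, under R 4.3.3) on the rounded counts: TMM factors, filterByExpr, Benjamini-Hochberg adjustment over all tested features, threshold 0.05. The standard error is the fold change divided by the root of F. For the GC correction a natural spline (5 degrees of freedom) of GC content was fitted, library by library, to the log2 deviations and used as an offset. Alternatives were DESeq2 1.42.0, limma 3.58.1 on log2(FPKM + 1) and log2(FPKM + 0.1), other factors and filters, the replicate block and each library left out. The fits without day 11 and with GC and length were added after seeing the data.

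Replicate numbers mark the day of collection in the labels, so they pair the libraries. Deviations from the group means correlated at 0.26, 0.28 and 0.41 between libraries of the same day and at −0.34 to 0.13 between days. The deviations within a group cancel out, so these correlations are not independent. The low values between days add no separate support to the pairing. No pair of replicates agreed within sampling noise (chi-square per feature 20.1 to 77.8). The members and lists were chosen with earlier results of these data known. All 49 members could be named. Values in every library were given for members called, for those tied to Snail, for the 3 highest levels and the 3 largest changes in each direction, and for USP8, chosen after its values were seen. Of other lists, the lowest p-values were named, and PSMD14, COPS5 and WDR48 were named after their values were seen. The scripts were tested on simulated data. The result of 1 further gene list is not reported here.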

Additional observations from a re-analysis of the deposited data

Results flagged for a closer look

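For 12 of the 45 tested members the shNXN library was above shControl on some days and below it on others. The share of all features with such signs was not counted. With 1 library per group and day, the difference between days was not tested for these genes. The linear trend over the days, a test with few residual degrees of freedom, called none of them. On days 7, 9 and 11 the log2 differences (shNXN minus shControl) were −0.53, −1.21 and 0.23 for USP28, which stabilizes MYC, and −0.075, −0.48 and 0.21 for the spliceosome component USP39. USP36, a nucleolar member, was at 0.14, 0.73 and −0.054, and USP2 at 1.17, −0.27 and 0.23, the latter at under 10 CPM in every library. USP43 was at −0.33, 0.24 and 0.41, and USP54 at 0.22, −0.16 and 0.12. In 8 of the 12, USP28, USP39, USP36, USP13, USP31, USP42, USP4 and USP10, day 11 alone had the opposite sign. USP13 was at −0.45, −0.27 and 0.15, USP31 at −0.29, −0.29 and 0.028, and USP42 at −0.13, −0.15 and 0.17. The remaining members were USP4 at −0.058, −0.18 and 0.12, USP10 at 0.10, 0.11 and −0.053, and USP30 at −0.17, 0.050 and 0.023.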

How the results depend on the processing

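The number of features called was 477, and became 3311 with DESeq2, 818 without a filter, 826 with RLE factors, 929 scaled by library size, 3272 with the replicate block, 5 with GC correction (also with GC and length), 151 with block and GC correction, 287 and 66 with limma on log2(FPKM + 1) and log2(FPKM + 0.1), 4519 without day 11 and 2041 without day 11 and with GC correction. The 3 members called became 21 with DESeq2, 7 without a filter, with RLE factors or scaled by library size, 6 with at least 10 counts in every library, 20 with the replicate block, 0 with each GC correction on all libraries, 1 with limma on log2(FPKM + 0.1), 25 without day 11 and 14 with GC correction as well. Their median of −0.52 became −0.14 with GC correction, −0.15 with the block too, −0.13 with length, −0.17 and −0.20 with limma, where the median of all features was 0.13 and 0.16, −0.90 without day 11 and −0.16 with GC correction as well. Other deubiquitinases called (3) became 10 with DESeq2, 9 with the block, 0 with GC correction (also with length), 1 with limma on log2(FPKM + 0.1), 10 without day 11 and 6 with GC correction as well. Partner proteins called (0) became 7 with DESeq2, 6 with the block, 8 without day 11 and 3 with GC correction as well. The trend test called 1 feature without a filter. Leaving out each library in turn gave 0 to 3706 features, 0 to 25 members, medians of −0.90 to −0.40, 0 to 10 other deubiquitinases, 0 to 6 partners, NXN at −1.90 to −1.67 and 0 to 12 features with a trend. Among these 6 fits, the most features, members, other deubiquitinases and partners were called without the shNXN library of day 11, and the most features with a trend without the shControl library of day 7. The NXN call was lost in 4 of the 6. The replicate block changed the sign of 0 members and brought 17 past the threshold.

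Signs turned mostly with GC correction: CYLD 0.25, USP3 0.092, USP5 −0.034, USP13 0.17, USP20 −0.18, USP21 −0.047, USP22 −0.0068, USP30 0.11, USP31 0.080, USP35 −0.010, USP36 −0.087, USP37 0.18, USP38 0.065, USP43 −0.26, USP46 0.58, USP54 −0.10, UCHL5 0.18, ENY2 0.63, PSMD14 1.20, COPS5 0.88 and WDR48 0.35. With the replicate block as well they were CYLD 0.26, USP3 0.090, USP5 −0.038, USP13 0.18, USP20 −0.18, USP21 −0.047, USP30 0.099, USP31 0.082, USP35 −0.00012, USP36 −0.064, USP37 0.18, USP38 0.068, USP43 −0.23, USP46 0.57, USP54 −0.090, UCHL5 0.15, ENY2 0.61, PSMD14 1.26, COPS5 0.88 and WDR48 0.36. Without day 11 and with GC correction they were CYLD 0.26, USP3 0.19, USP5 −0.058, USP13 0.13, USP20 −0.16, USP21 −0.064, USP30 0.16, USP31 0.082, USP37 0.025, USP38 0.20, USP43 −0.44, USP46 0.82, USP54 −0.10, UCHL5 0.39, ENY2 0.69, PSMD14 1.13, COPS5 0.88 and WDR48 0.34. Without day 11 alone the sign turned for USP43 −0.062, and without a filter for USP4 0.0033 and USP30 0.011. With limma on log2(FPKM + 1) and then log2(FPKM + 0.1) the turned values were USP13 at 0.16 and 0.17, USP20 at −0.040 and −0.047, USP30 at 0.026 and 0.041, USP31 at 0.67 and 0.72, USP39 at 0.28 and 0.28, USP42 at 0.033 and 0.035, USP54 at −0.039 and −0.042, and PSMD14 at 0.17 and 0.17. With each library left out in turn USP4 ran from −0.21 to 0.12, USP10 ran from −0.060 to 0.26, USP30 ran from −0.12 to 0.095, USP39 ran from −0.31 to 0.0084, USP42 ran from −0.069 to 0.075, USP43 ran from −0.031 to 0.34, and USP54 ran from −0.049 to 0.19. The cause of these changes was not tested. With 3 libraries per group, each from another day, the depth (15349382 counts or more) limits what can be said of the 3 members that were not tested.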
